A study of Canis lupus familiaris with 45 samples.

Results

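TIE1, AQP1 and VWF are 3 genes whose transcripts mark the endothelium, the cell layer that lines blood vessels. They were followed in the left ventricle of dogs that developed heart failure under rapid pacing. Every probe set annotated to the single symbol TIE1, AQP1 or VWF was taken, which gave 9 of the 23836 probe sets of the array, or 3 of the 6540 genes named by a single symbol. TIE1 had 1 probe set, AQP1 had 4 and VWF had 4. The samples were transmural sections of left ventricle from 15 male, age-matched dogs in 5 groups of 3. The right ventricle of the Day-3, Week-1 and Week-2 dogs was paced at 240 ppm for the time in the group's name, the End-stage dogs were paced to verified failure at 3 to 4 weeks, and the Day-0 dogs were unpaced. Each dog contributed 1 heart and so 1 stage, RNA was isolated 3 times from its tissue, and each isolation had its own array.

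The heart muscle is dense with capillaries, and its endothelium controls the exchange of water and nutrients, the tone of vessels and the clotting of blood. TIE1 is a receptor tyrosine kinase that binds no angiopoietin on its own and works beside TEK (Tie2), the angiopoietin receptor that keeps vessels quiescent. AQP1 is a water channel of the plasma membrane, abundant in capillary endothelium and in red cells. VWF is the large glycoprotein that endothelial cells store in Weibel-Palade bodies and release to tether platelets and to carry coagulation factor VIII. In a tissue section, fewer endothelial cells and less RNA per endothelial cell cannot be told apart.

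The arrays gave 1 signal intensity per probe set, on a scale set by the authors, and signals are given below as log2 values averaged over the 3 arrays of a dog. Differences between groups of 3 dogs were tested with limma (moderated test, two-sided, Benjamini-Hochberg adjustment over 14301 tested probe sets, threshold 0.05). The number of dogs limits the precision, and each paced group was compared with the same 3 Day-0 dogs. The tissue label was checked on heart muscle genes, and all 11 cardiomyocyte markers measured lay at or above the 97.65th percentile of probe sets. Median signal per array lay between 33.3 and 48.6. The ratio of 3-prime to 5-prime GAPDH signal, a sign of RNA integrity, lay at 0.932 to 0.983 in Day-0 dogs, 0.881 to 1.02 in Day-3 dogs, 0.914 to 0.967 in Week-1 dogs, 0.891 to 0.961 in Week-2 dogs and 0.923 to 0.978 in End-stage dogs.

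The labels of dog 1 of Week-1 and dog 1 of End-stage are in doubt. Over all tested probe sets, the best match of 36 of the 39 arrays of the other 13 dogs was another array of that dog. The arrays were then compared over 200 probe sets chosen to separate those 13 dogs, so that the matches of their own arrays there, at a Pearson r across probe sets of at least 0.817, follow from the choice. Isolation 2 of Week-1 dog 1 was instead closest to isolation 1 of End-stage dog 1 (r = 0.477) and had r = 0.084 and 0.112 with the other isolations of its own dog. Those other isolations gave r of 0.581 to 0.629 with the 2 remaining arrays of the End-stage dog. The arrays were kept under their labels, and the Week-1 and End-stage differences of TIE1, AQP1 and VWF from Day-0 are given with and without both dogs.

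The probe sets differed in how far they could be measured. Of the 9, 6 passed the filter that left out the dimmest 40% of probe sets, those with a geometric mean signal under 22.8. TIE1 1586702_at averaged a log2 signal of 8.09. AQP1 was read by 1603648_at at 11.46, by 1582657_s_at at 8.02 and by 1582656_at at 7.40. VWF was read by 1582504_x_at at 10.46 and by 1582505_x_at at 10.20. The 3 probe sets under the filter were AQP1 1582940_at at 4.44, VWF 1590107_at at 4.02 and VWF 1602114_at at 3.40. Signals of different probe sets depend on their probes, so no level is compared between them. On this array the suffix s_at marks a probe set whose probes are shared by related transcripts, and x_at marks one in which some probes may also bind unrelated transcripts.

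No probe set of the 3 genes passed the threshold in any comparison. At Day-3, 0 of the 6 tested probe sets were called, against 0% of all tested probe sets. At Week-1 the count was 0 of 6, against 0.028% of all tested probe sets. At Week-2 it was 0 of 6, against 0.0839%, and at End-stage 0 of 6, against 0.014%. For the mean of the 4 paced groups minus Day-0 it was also 0 of 6, against 0.301%. By limma's unadjusted p under 0.05, 1 of 6 was lower at Day-3 (4.35% of tested probe sets were) and 3 of 6 were lower at Week-1 (5.1%). In the higher direction the counts were 2 of 6 at Week-2 (5.03%) and 2 of 6 at End-stage (3.7%), and for the mean of the 4 paced groups 1 of 6 in each direction (11.7% in either). With so few adjusted calls over the whole array, 0 of 6 says little about these genes, so their sizes, intervals and dogs are given below.

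TIE1, the receptor, lay lower early in pacing than in unpaced dogs, but did not pass the array-wide adjustment. Its log2 signals were 8.49, 8.31 and 8.17 in Day-0 dogs, 7.95, 7.74 and 8.10 in Day-3 dogs, 8.05, 7.71 and 8.01 in Week-1 dogs, 8.05, 8.33 and 7.83 in Week-2 dogs, and 8.25, 8.16 and 8.17 in End-stage dogs. All Day-3 and all Week-1 dogs lay under every Day-0 dog, while the Week-2 and End-stage dogs overlapped the Day-0 dogs. In group means, Day-0 stood first, followed by End-stage, Week-2, Day-3 and Week-1. No pair of neighbours in that order differed by more than 0.18, the SD of dog means within groups. That SD also holds the spread of isolations, and with their part taken out it was 0.127.

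The difference in TIE1 signal was -0.39 on the log2 scale at Day-3, or 1.31-fold lower (SE 0.15, 95% confidence interval -0.71 to -0.08, limma adjusted p = 0.514). At Week-1 it was -0.40, or 1.32-fold lower (SE 0.15, limma adjusted p = 0.409), and -0.46 without the 2 doubted dogs (limma adjusted p = 0.515). At Week-2 the difference was -0.26 (limma adjusted p = 0.571). It was -0.13 at End-stage (limma adjusted p = 0.908), with an interval of -0.45 to 0.19, and -0.16 without the doubted dogs. Dogs that lie wholly under the Day-0 dogs were common on this array: 6.44% of tested probe sets did so at Day-3 and 9.4% at Week-1. The 3 arrays of a dog differed by an SD of 0.22 in TIE1, and those of Week-1 dog 1 by 0.44, with 8.35 and 8.26 in isolations 1 and 3 and 7.55 in isolation 2.

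**Figure D1:**
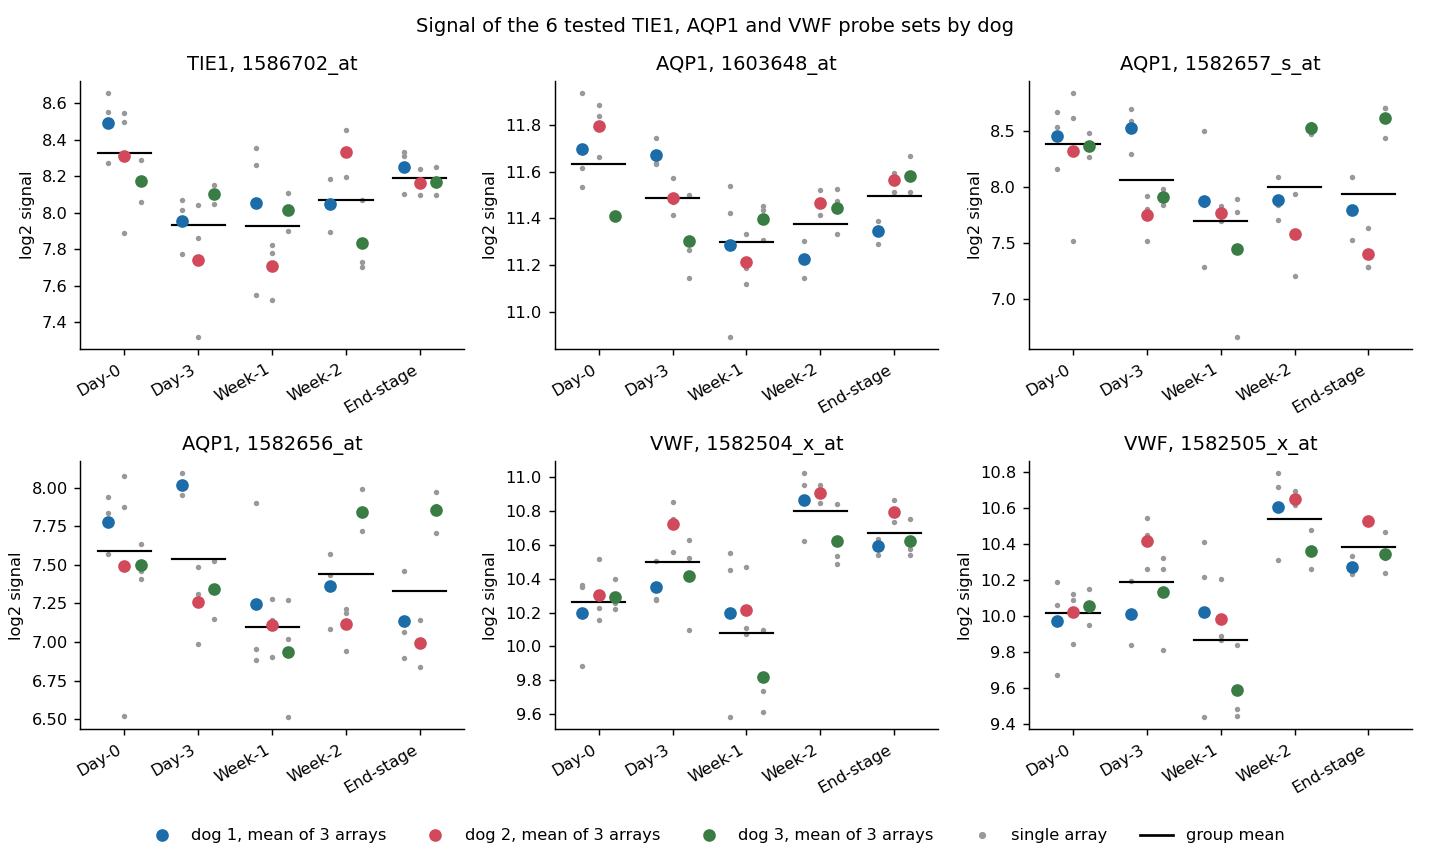
Log2 signal (vertical axes) of the 6 tested probe sets in the 5 groups (horizontal axes); coloured points are dogs, each the mean of 3 arrays, grey dots are single arrays and black lines are group means of 3 dogs. TIE1 lay under every Day-0 dog at Day-3 and Week-1, AQP1 did so at Week-1, and the VWF probe sets lay above every Day-0 dog at Week-2 and End-stage.

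AQP1, the water channel, was lowest at Week-1 on all 3 of its tested probe sets. On the brightest, 1603648_at, the log2 signals were 11.69, 11.79 and 11.41 in Day-0 dogs, 11.67, 11.49 and 11.30 in Day-3 dogs, 11.29, 11.21 and 11.40 in Week-1 dogs, 11.23, 11.46 and 11.44 in Week-2 dogs, and 11.35, 11.56 and 11.58 in End-stage dogs. The 3 Week-1 dogs lay under all Day-0 dogs, the highest at 11.40 against the lowest Day-0 dog at 11.41. The Day-3, Week-2 and End-stage dogs overlapped the Day-0 dogs.

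On 1603648_at the Week-1 difference was -0.33, or 1.26-fold lower (SE 0.13, limma adjusted p = 0.458), and -0.33 without the doubted dogs (limma adjusted p = 0.65). The differences at Day-3, Week-2 and End-stage were -0.15, -0.26 and -0.14 (limma adjusted p = 0.888, 0.511 and 0.893). Without End-stage dog 1 and Week-1 dog 1 the End-stage difference was -0.06. The group means of 1603648_at ran in the order Day-0, End-stage, Day-3, Week-2 and Week-1. Steps between neighbours were at most 0.15, the SD of dog means within groups (0.131 with the part of the isolations taken out).

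The other tested AQP1 probe sets, 1582657_s_at and 1582656_at, were built on 1 mRNA record and followed each other more closely than 1603648_at. Across the 15 dogs they correlated at a Pearson r of 0.955 with each other, and at 0.477 and 0.508 with 1603648_at. These values are descriptions over dogs that share their groups and arrays. The log2 signals of 1582657_s_at were 8.46, 8.33 and 8.37 in Day-0 dogs, 8.53, 7.75 and 7.91 in Day-3 dogs, 7.88, 7.77 and 7.45 in Week-1 dogs, 7.88, 7.58 and 8.53 in Week-2 dogs, and 7.80, 7.40 and 8.62 in End-stage dogs. The Week-1 dogs were again all under the Day-0 dogs. In each of the other paced groups 1 dog lay above all Day-0 dogs and the remaining 2 lay below them.

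The same dogs stood high on 1582656_at, at 8.02 for Day-3 dog 1, 7.84 for Week-2 dog 3 and 7.85 for End-stage dog 3, against 7.49 to 7.78 in the Day-0 dogs. On 1603648_at, Day-3 dog 1 had 11.67, the highest of its group, Week-2 dog 3 had 11.44 against 11.46 in Week-2 dog 2, and End-stage dog 3 had 11.58 against 11.56 in End-stage dog 2. The SD of dog means within groups was 0.41 for 1582657_s_at and 0.34 for 1582656_at, against 0.15 for 1603648_at and a median of 0.27 over tested probe sets. The dog and the isolation both added to it: isolations of a dog differed by an SD of 0.35, 0.33 and 0.13 on these 3 probe sets, in the same order.

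At Week-1 the difference was -0.69 on 1582657_s_at (1.61-fold lower, SE 0.29, interval -1.31 to -0.06, limma adjusted p = 0.496) and -0.49 on 1582656_at (1.41-fold lower, SE 0.25, limma adjusted p = 0.589). Without the doubted dogs these were -0.78 and -0.57. At Day-3, Week-2 and End-stage the differences were -0.32, -0.38 and -0.44 on 1582657_s_at, with SE 0.29 each. They were -0.05, -0.15 and -0.26 on 1582656_at, with SE 0.25 each, and without the doubted dogs the End-stage values were -0.37 and -0.17. The sign of the Day-3 and Week-2 differences on 1582656_at turned when single dogs were left out. All 3 AQP1 probe sets therefore gave a lower estimate in every paced group, between -0.05 and -0.69, and none passed the threshold.

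VWF, the secreted glycoprotein, had higher estimates late in pacing. On 1582504_x_at the log2 signals were 10.20, 10.30 and 10.29 in Day-0 dogs, 10.35, 10.72 and 10.41 in Day-3 dogs, 10.19, 10.22 and 9.82 in Week-1 dogs, 10.87, 10.91 and 10.62 in Week-2 dogs, and 10.59, 10.79 and 10.62 in End-stage dogs. All Day-3, Week-2 and End-stage dogs lay above all Day-0 dogs, and the Week-1 dogs overlapped the Day-0 dogs with 1 of them, at 9.82, well below the rest. Week-2 stood first in group means, then End-stage, Day-3, Day-0 and Week-1. Neighbours in that order differed by 0.13 to 0.23, against an SD of dog means within groups of 0.16 (0.096 with the part of the isolations taken out).

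The Week-2 difference in VWF was 0.53 on the log2 scale, or 1.45-fold higher (SE 0.14, interval 0.24 to 0.83, limma adjusted p = 0.128). At End-stage it was 0.41, or 1.32-fold higher (SE 0.14, limma adjusted p = 0.374), and 0.44 without the doubted dogs (limma adjusted p = 0.472). At Day-3 it was 0.23 (limma adjusted p = 0.738). At Week-1 the difference was -0.19 (limma adjusted p = 0.765), and -0.25 without the doubted dogs. It was -0.06 without Week-1 dog 3, the lowest of its group, and -0.03 without isolation 2 of each dog. Over all tested probe sets 8.08% lay wholly above the Day-0 dogs at Week-2, 6.34% at End-stage and 6.16% at Day-3.

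Between consecutive stages, VWF 1582504_x_at lay 0.72 higher at Week-2 than at Week-1, or 1.65-fold (SE 0.14, limma adjusted p = 0.692), and 0.78 higher without the doubted dogs. That adjusted p equalled the smallest over all probe sets in this comparison, in which 0 were called and 6.01% had all Week-2 dogs above all Week-1 dogs. Week-1 was lower than Day-3 by a log2 value of -0.42 (SE 0.14, limma adjusted p = 0.975), and End-stage minus Week-2 was -0.13 (limma adjusted p = 0.999), in comparisons that called 0% of tested probe sets. The moderated F test over the 5 groups gave an adjusted p of 0.26 for 1582504_x_at in limma. The corresponding adjusted p was 0.734 for TIE1 and 0.836 for AQP1 1603648_at.

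**Figure D2:**
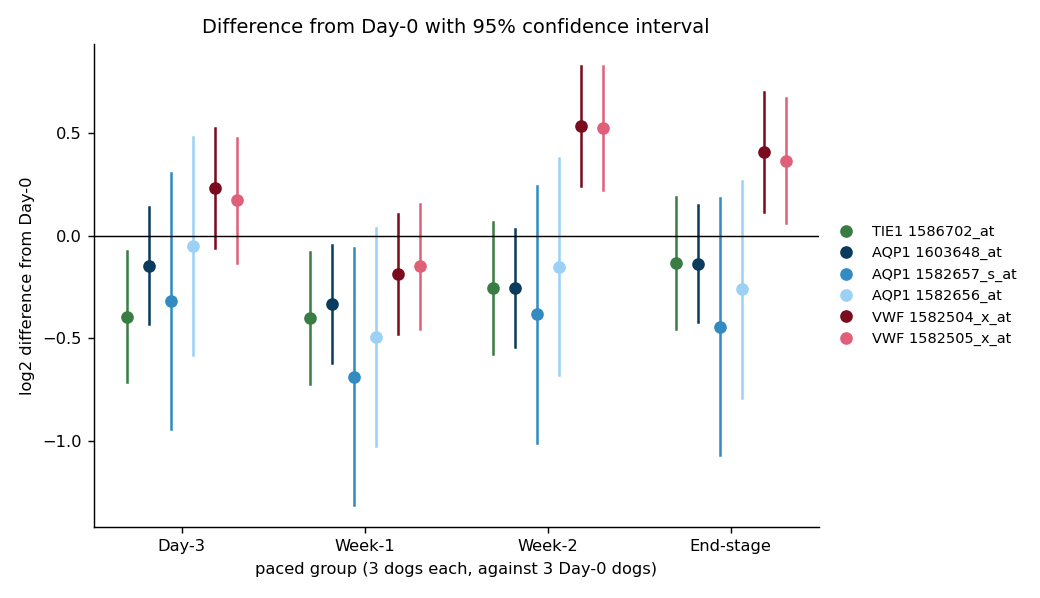
Log2 difference of each paced group from Day-0 (vertical axis) for the 6 tested probe sets, with 95% confidence intervals as bars; the horizontal axis gives the paced group, with 3 dogs per group. TIE1 and AQP1 lay below 0 in every paced group, and VWF reached 0.53 and 0.52 at Week-2.

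The second VWF probe set, 1582505_x_at, gave the same picture, at an r of 0.991 with the first across the 15 dogs. Its log2 signals were 10.60, 10.65 and 10.36 in Week-2 dogs and 10.27, 10.53 and 10.34 in End-stage dogs, against 9.97, 10.02 and 10.05 in Day-0 dogs. All 6 late dogs lay above the Day-0 dogs, while at Day-3, with 10.01, 10.42 and 10.13, they overlapped. The Week-2 difference was 0.52 (SE 0.14, limma adjusted p = 0.143), the End-stage difference 0.37 (limma adjusted p = 0.474) and the Week-1 difference -0.15 (limma adjusted p = 0.836). Without the doubted dogs the End-stage and Week-1 differences were 0.42 and -0.23.

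The dim VWF probe sets could not be used to check the bright ones. On 1590107_at the signals at Week-2 were 19.2, 20.7 and 22.3, against 16.7, 17.8 and 12.1 in Day-0 dogs, all under the filter's 22.8. In a fit with no filter its Week-2 difference was 0.43 (SE 0.35, limma adjusted p = 0.762) and its End-stage difference 0.00. On 1602114_at the same differences were -0.04 (SE 0.51) and -0.77 (SE 0.51). Arrays of a dog differed by an SD of 0.80 and 1.07 on these probe sets, against 0.22 on 1582504_x_at. AQP1 1582940_at, also dim, had a Week-1 difference of 0.05 (SE 0.47) in that fit.

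Across dogs the 3 genes followed each other loosely at most. TIE1 correlated with AQP1 1603648_at at a Pearson r of 0.453 over 15 dogs, and at 0.138 once the group means were removed. TIE1 with VWF 1582504_x_at gave 0.03, and AQP1 1603648_at with VWF gave -0.03. Week-1 was the stage at which all 6 tested probe sets had a lower estimate than at Day-0, as 54.6% of all tested probe sets did. In 4 of 6 all Week-1 dogs lay under all Day-0 dogs, against 9.4% of tested probe sets. All 6 were also lower, and 4 of 6 had no overlap, without the doubted dogs. That setting leaves 2 Week-1 dogs, with which a lack of overlap arises more easily. Its share over all tested probe sets was not counted. At Week-2 the 4 TIE1 and AQP1 probe sets lay lower than at Day-0 and the 2 VWF probe sets higher. From Week-1 to Week-2 all 6 had a higher estimate, while 46.8% of all tested probe sets had a lower one. The 3 AQP1 probe sets and the 2 VWF probe sets each read 1 gene, so these counts rest on 3 genes. The 4 without overlap at Week-1 were those of TIE1 and AQP1, with no VWF probe set among them.

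Other genes of the endothelium were read from a list of 42 written for the purpose, of which 18 had a probe set with a single symbol and 15 passed the filter; ICAM1, SELE and SELP were under it. In this and the other lists each gene was read by its brightest probe set. Leaving out TIE1, AQP1 and VWF, 12 were tested, and 0 of 12 were called in any comparison. At Week-1, 10 of these 12 had a lower estimate, with a median log2 difference of -0.24 against -0.03 over all tested probe sets. Leaving out the doubted dogs, 11 of 12 were lower at Week-1, with a median of -0.29, and the End-stage median was 0.15. The medians at Day-3, Week-2 and End-stage were -0.10, -0.08 and 0.03, against 0.004, -0.005 and -0.025 for all tested probe sets. From Week-1 to Week-2, 11 of the 12 had a higher estimate, as VWF did, with a median of 0.29 against 0.017 for all tested probe sets.

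At Week-1, 3 of the 12 had an unadjusted p under 0.05, all lower, against 5.1% of tested probe sets. Over all 25 tested probe sets of these 12 genes, 5 were lower by that measure, 1 each of CD36, CD34, TEK, NOSTRIN and PECAM1. CD36, a fatty acid receptor of capillary endothelium that muscle cells and fat cells also carry, had a difference of -0.83 (SE 0.17, limma adjusted p = 0.1), and -0.92 without the doubted dogs. CD34, a sialomucin of capillary endothelium, had -0.51 (limma adjusted p = 0.32), and -0.46 without the doubted dogs. TEK, the partner of TIE1, had -0.49 (limma adjusted p = 0.498), and -0.53 without them. CD36 also had a lower estimate at End-stage, of -0.70 (limma adjusted p = 0.2), and -0.83 without them. NOSTRIN, which moves the endothelial nitric oxide synthase off the membrane, had -0.57 at Week-2 (limma adjusted p = 0.363). VCAM1, an adhesion molecule that activated endothelium displays to leukocytes, had 1.16 at Day-3 (SE 0.37, limma adjusted p = 0.363). The 6 tested probe sets of PECAM1, the junctional adhesion molecule, disagreed, with differences of -0.21 to 0.06 at Day-3, -0.41 to 0.12 at Week-1, -0.74 to 0.30 at Week-2 and -0.24 to 0.05 at End-stage. ENG, a co-receptor for transforming growth factor beta, had 0.00, 0.04, 0.31 and 0.12 at these stages. In the same order, ICAM2 had -0.34, -0.37, 0.29 and 0.18, RAMP2 -0.03, -0.24, 0.00 and 0.11, and PODXL 0.06, -0.20, 0.24 and 0.00. The 3 tested probe sets of NOS3 gave -0.38 to -0.14, -0.42 to -0.23, -0.19 to -0.01 and -0.12 to 0.08.

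**Figure D3:**
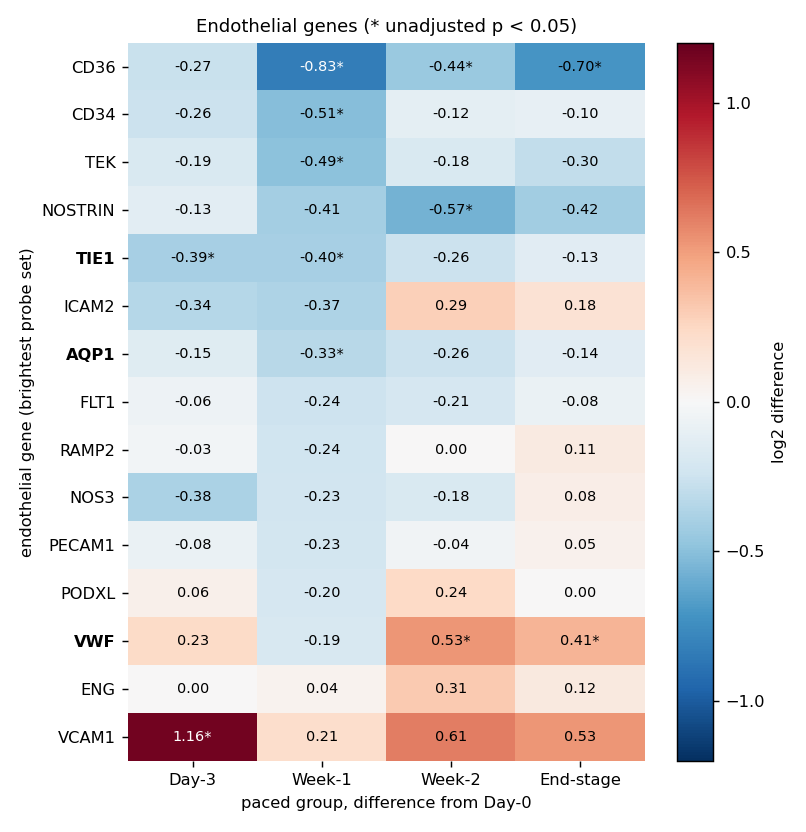
Log2 differences from Day-0 (colour and printed value) of the 15 tested endothelial genes, each by its brightest probe set, in the 4 paced groups (columns, 3 dogs each); asterisks mark an unadjusted limma p under 0.05 and TIE1, AQP1 and VWF are in bold. At Week-1, 13 of the 15 had a lower estimate, with CD36 at -0.83, and 0 passed the adjusted threshold.

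Around TIE1, the list of Tie and VEGF receptor signalling held 26 genes, of which 11 were measured and tested, and 0 were called. Some of these, TIE1, TEK and FLT1 among them, are also in the endothelial list, so the 2 lists share values. Its median difference was -0.25 at Day-3, -0.32 at Week-1, -0.18 at Week-2 and -0.19 at End-stage. Without the doubted dogs it was -0.39 at Week-1 and -0.26 at End-stage. VEGFA, the ligand that drives endothelial growth, lay under all Day-0 dogs in every paced group, as 1.61% of tested probe sets did. For single stages, that share was 6.44% at Day-3, 9.4% at Week-1, 9.21% at Week-2 and 7.94% at End-stage. Its differences were -0.47 at Day-3, -0.65 at Week-1, -0.48 at Week-2 and -0.61 at End-stage, with limma adjusted p of 0.579, 0.29, 0.379 and 0.352. Without the doubted dogs the Week-1 and End-stage values of VEGFA were -0.65 and -0.63. ANGPT1, the angiopoietin that activates TEK, had 0.25, 0.12, 0.48 and 0.04 at the same stages, and FLT1, a VEGF receptor, had -0.06, -0.24, -0.21 and -0.08. A second tested probe set of FLT1 gave -0.52, -0.56, -0.44 and -0.59, and the 2 tested probe sets of ANGPT1 spanned -0.64 to 0.48 at Week-2.

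Around VWF, 7 of 21 listed genes of its processing and of haemostasis were measured and 4 passed the filter, with 0 called. F8, the coagulation factor that VWF carries in blood, had a Week-1 difference of -0.46 and a Week-2 difference of 0.10 (SE 0.27 each, limma adjusted p = 0.697 and 0.938). TFPI, an inhibitor of the tissue factor pathway, had 0.19 at Week-2, and PROS1, the cofactor protein S, had -0.60 (SE 0.41). Around AQP1, 5 of 12 listed channel genes were measured; besides AQP1 only AQP8 and AQP11 passed the filter, with Week-1 differences of 0.36 and -0.25 (SE 0.33 and 0.25).

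Other sources of these transcripts were read beside them. The red cell list, which matters for AQP1, had no measured gene. Of 8 platelet genes, which matter for VWF, 2 were measured; ITGA2B, a platelet integrin chain, had a Week-2 difference of -0.77 (SE 0.58, limma adjusted p = 0.688), and GP1BA, the platelet receptor for VWF, was under the filter. Their summed signal lay at 5.22 to 5.87 on the log2 scale in Week-2 dogs and 5.25 to 6.25 in End-stage dogs, against 5.66 to 6.02 in Day-0 dogs, with overlap between the groups.

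The summed signal of 5 adipocyte markers (of 8 listed) lay at 10.04 to 11.30 in Week-1 dogs and 10.14 to 11.14 in End-stage dogs, against 9.10 to 9.98 in Day-0 dogs. LPL, a lipase that heart muscle also makes, weighs most in that sum, with differences of 1.53 at Week-1 and 1.68 at End-stage. ADIPOQ, the adiponectin gene, had 1.67 and -0.02, PPARG, the nuclear receptor of fat cells, 0.09 and -0.24, and LIPE, the hormone-sensitive lipase, -0.44 and 0.00, and LEP was under the filter. The 2 tested probe sets of ADIPOQ disagreed at Week-1, at 0.07 and 1.67, and those of PPARG at End-stage, at -0.24 and 0.34. None of these was called. The summed signal of 8 smooth muscle and pericyte markers (of 15 listed) lay at 13.61 to 13.86 in End-stage dogs and 13.70 to 14.04 in Week-1 dogs, against 13.90 to 14.08 in Day-0 dogs. The sum over the 18 endothelial markers, in which the bright AQP1 and VWF probe sets weigh most, lay at 12.79 to 12.91 in Week-1 dogs, against 13.02 to 13.26 in Day-0 dogs. Without the doubted dogs the adipocyte sum lay at 10.88 to 11.30 in Week-1 dogs and 11.01 to 11.14 in End-stage dogs, and the smooth muscle sum at 13.83 to 13.86 in End-stage dogs. The sums of 11 cardiomyocyte, 11 macrophage, 9 fibroblast and 5 lymphocyte markers overlapped between each paced group and Day-0. Of single tested probe sets, 6.73% at Week-1 and 6.34% at End-stage had all dogs above the Day-0 dogs. All dogs lay below them in 9.4% at Week-1 and 7.94% at End-stage. A share for sums was not counted, and several lists were read at several stages, so sums without overlap carry little weight. None of the summed markers was listed at 0, and their part in the AQP1, TIE1 and VWF values was not tested.

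The genes most like each of the 3 were ranked by Pearson r over the 15 dogs among 7671 to 7673 tested probe sets with a single symbol. For TIE1 they were DUT (0.835), RAB14, AP4B1, WDR90 and SEMA4F (0.797), and TUBB2A was the least alike at -0.866. For AQP1 1603648_at they were RNF2 (0.842), SOD2, ECSCR, NDUFAF5 and PNP (0.786), with SLC22A3 the least alike at -0.789. ECSCR, an endothelial surface protein, had an r of 0.794. Once the group means were removed, the r of the 5 most alike ran from 0.605 to 0.896 for TIE1 and from 0.632 to 0.801 for AQP1. These rankings describe dogs that share groups and arrays, and the order of such close values carries no weight.

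For VWF 1582504_x_at, 3 of the 5 most alike probe sets were annotated to RPS16, a protein of the small ribosomal subunit, at r of 0.853, 0.817 and 0.80. The others were ACTL7A (0.816) and PLA2G12A (0.786), and the least alike was NSUN5 at -0.814. Once the group means were removed, the r of the 5 most alike ran from 0.563 to 0.772, and that of NSUN5 was -0.53. All 7 tested RPS16 probe sets carry the x_at suffix, as the bright VWF probe sets do. In the 3 most alike, in the same order, the Week-2 minus Week-1 differences were 0.55, 0.59 and 0.71, against 0.72 for VWF. The Week-2 minus Day-0 differences were 0.30, 0.24 and 0.26, against 0.53 for VWF. At End-stage their differences from Day-0 were 0.07, 0.00 and -0.01, against 0.41 for VWF. At Day-3 they were 0.02, -0.02 and -0.03, against 0.23, and at Week-1 -0.25, -0.36 and -0.45, against -0.19. The other 4 tested RPS16 probe sets had r of -0.30 to 0.31 with VWF. Whether the VWF probe sets bind another transcript was not tested, and no probe sequence was used here.

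Over the 410 tested x_at probe sets, the median Week-2 minus Day-0 difference was -0.002, against 0.001 over the 12117 tested probe sets whose names end in at alone. Higher with an unadjusted p under 0.05 were 4.15% of the x_at probe sets at Week-2 and 3.9% at End-stage, against 5.13% and 3.58% of the others. The part of the suffix in the VWF values was not tested.

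**Figure D4:**
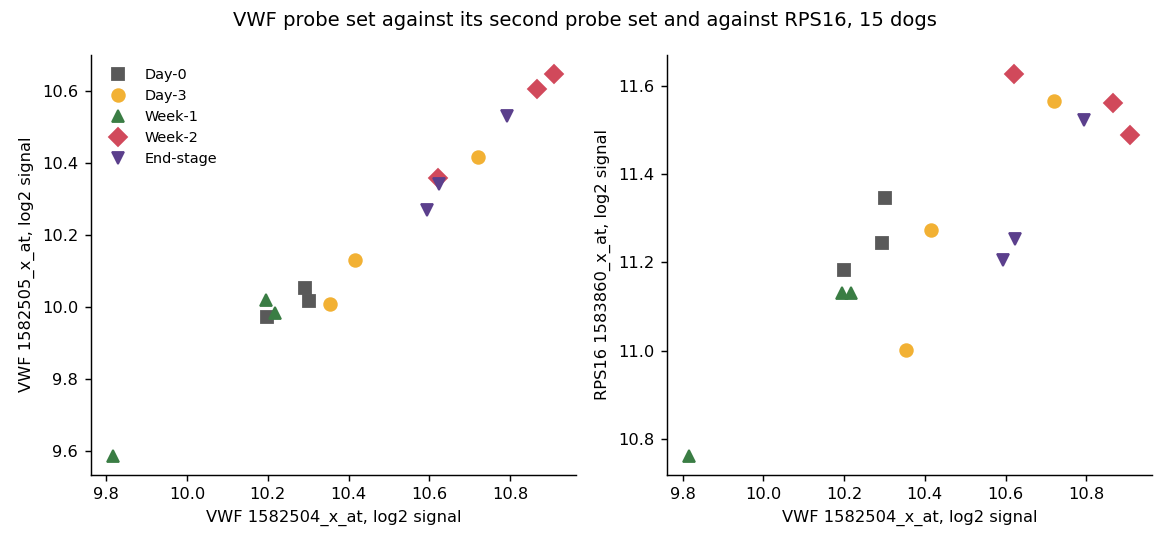
Log2 signal of VWF 1582504_x_at (horizontal axes) in the 15 dogs against VWF 1582505_x_at (left) and against the most alike RPS16 probe set (right), marked by group; each point is a dog. The VWF pair lay close to a line (r = 0.991), and the RPS16 probe set followed more loosely (r = 0.853), with Week-2 dogs high and a Week-1 dog lowest on both.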

How the data were processed

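Left ventricular RNA of 15 dogs was read on 45 single-colour arrays, 3 RNA isolations per dog. The submitters' processing notes name GCOS 1.4 and MAS5. Each deposited value is a signal intensity on a linear scale, set by the authors: with the lowest and highest 2% removed, the mean was 150.02 to 150.026 on every array. Of 23913 probe sets, 77 controls were left out. Probe sets were named from the platform's 2016 annotation, with symbols updated through the RefSeq table of the dog assembly UU_Cfam_GSD_1.0; 10549 had 1 symbol, 138 several and 13149 none.

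Groups and dog numbers came from the labels. Signals were log2 transformed and averaged per dog, the dimmest 40% were left out, and 14301 probe sets were tested in 1 fit of the 15 dogs (limma 3.58.1, R 4.3.3, lmFit, then eBayes with trend; threshold 0.05). The fit was tested on simulated data. A separate count noted groups whose dogs did not overlap. Alternatives covered the filter, scaling, pseudocount, arrays as a random block, isolations, dogs and the replicate number. All probe sets of the 3 symbols were named, with up to 6 genes per list, every endothelial gene measured, and the 5 most and 3 least like by r. The genes, lists and tests were chosen with earlier results of these data known. The suffix classes and the other RPS16 probe sets were looked at after the values were seen. Dogs with the same number deviated together in 2 comparisons, Week-1 minus Day-3 (r = 0.167, 0.296 and 0.318) and End-stage minus Week-2 (r = 0.23, 0.242 and 0.102), which rests on the data and not the labels; they did not do so with Day-0.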

Additional observations from a re-analysis of the deposited data

Results flagged for a closer look

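VWF 1582504_x_at stood out because its paced dogs lay on opposite sides of the Day-0 mean at different stages. Every Week-1 dog lay below that mean, and every Day-3, Week-2 and End-stage dog lay above it. The Week-1 dogs lay at -0.069, -0.048 and -0.448 from it. On the other bright VWF probe set, 1582505_x_at, the dogs did not split so. There Week-1 dog 1 lay at 0.006 and Day-3 dog 1 at -0.005 from the Day-0 mean. How many of all tested probe sets split in this way was not counted. Week-1 against Day-3, both relative to Day-0, differed by -0.42 on the log2 scale (limma adjusted p = 0.975). Week-2 against Week-1 differed by 0.72 (limma adjusted p = 0.692). End-stage against Week-1 differed by 0.59, and this difference was not tested. The 3 differences share the same 3 Week-1 dogs, among them the doubted dog 1, whose isolation 2 read 9.58, against 10.55 and 10.45 in isolations 1 and 3. Groups of 3 dogs are too small for the test of single outlying dogs.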

How the results depend on the processing

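Over 1110 alternative values for the 6 probe sets, 1081 kept their side of the threshold and, for differences, their direction. Of the rest, 7 passed the threshold and 22 turned sign. None of the 6 was called in the main fit, so no call could be lost. The F-test values among the 1110 have no sign that could turn. With all 45 arrays and the dog as a random block, VWF 1582504_x_at and 1582505_x_at passed at Week-2 minus Day-0 (limma adjusted p = 0.0262 and 0.027), at Week-2 minus Week-1 (0.0188 and 0.0202) and in the F test (0.00407 and 0.00934). With the replicate block, 1582504_x_at passed at Week-2 minus Day-0 (0.0455); over all alternatives its adjusted p there ran from 0.0262 to 0.352. The numbers do not pair dogs with Day-0, and for Week-1 minus Day-3 and End-stage minus Week-2 the block changed no call of the 6 probe sets. Of 241 alternatives for other named genes, 4 passed, all with 45 arrays: VCAM1 at Day-3, CD36 at Week-1 and End-stage, and RPS16 at Week-2 minus Week-1.

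Signs turned in differences of small size. AQP1 1582656_at, Day-3 minus Day-0, became 0.026 without isolation 2 and 0.043 to 0.089 without Day-0 dog 1, Day-3 dog 2 (0.089) or Day-3 dog 3 (0.048), in a leave-one-out range of -0.29 to 0.089; Week-2 minus Day-0 became 0.012 without Week-2 dog 2 (range -0.352 to 0.012); End-stage minus Week-2 became 0.021 under median centring, 0.09 without Week-2 dog 3 and 0.055 without End-stage dog 2 (range -0.373 to 0.09). AQP1 1582657_s_at, End-stage minus Week-2, became 0.072 under median centring, 0.034 without isolation 2, 0.012 without both doubted dogs or End-stage dog 1, 0.206 without Week-2 dog 3 and 0.209 without End-stage dog 2 (range -0.402 to 0.209). TIE1 1586702_at, Week-1 minus Day-3, became 0.087 under median centring, 0.149 without isolation 2, and 0.005, 0.079 and 0.103 without Day-3 dog 1, Day-3 dog 3 or Week-1 dog 2 (range -0.101 to 0.103). AQP1 1603648_at, Week-2 minus Week-1, became -0.044 under median centring and -0.007 without isolation 2, and VWF 1582504_x_at, End-stage minus Week-2, became 0.003 under median centring. Median centring moved the median of all probe sets from 0.017 to -0.106 at Week-2 minus Week-1 and from -0.009 to 0.123 at End-stage minus Week-2.

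Counts of called probe sets over the array moved more. With 45 arrays they were 273 at Day-3, 377 at Week-1, 483 at Week-2, 322 at End-stage, 701 for the paced mean, 7, 30 and 3 between consecutive stages and 493 in the F test; repeat isolations then count as samples within a dog. The replicate block gave 17 at Week-1, 88 at Week-2, 0 at End-stage, 219 for the paced mean, 1 at End-stage minus Week-2 and 1 in the F test. At Week-1 the count was 7 with no filter, with 20% left out or with only the groups compared, 13 with quantile normalization, 1 with median centring, 12 with log2 of signal plus 16, and 0 with no trend, without isolation 1 or 2, or without the doubted dogs. At Week-2 it was 24 with quantile normalization, 4 with median centring, 2 with no trend, 6 and 19 without isolation 1 or 2, and 40 with only the groups compared. At End-stage it was 0 with either other filter, quantile normalization, median centring, no trend or no isolation 1, 4 and 5 without isolation 2 or 3, 6 with only the groups compared and 11 without the doubted dogs. For the paced mean it was 21 with no filter, 68 with quantile normalization, 14 with median centring, 6 with no trend, 26 and 13 without isolation 1 or 3, and 28 without the doubted dogs. It was 1 at Day-3 without isolation 2, 1 at Week-2 minus Week-1 with only the groups compared, and in the F test 2 without isolation 3 and 6 without the doubted dogs. The causes were not tested. Leaving out 1 dog at a time gave 0 to 23 calls at Day-3, 0 at Week-1, 0 to 20 at Week-2, 0 to 6 at End-stage, 1 to 111 for the paced mean, 0 to 1 in each consecutive comparison and 0 to 13 in the F test.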
